A study of Solanum tuberosum with 136 samples.

Results

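The genes described here are 155 potato genes whose transcripts fell in the buds of stored control tubers and whose level at week 15 of storage was about the same with and without ethylene. They were chosen by measured values out of the 32878 genes of the deposited table. In control primary buds the level, log2(mean CPM of 4 libraries + 1), had to be lower by at least 1 in each of weeks 15, 16, 17 and 18 than at week 0, and ethylene minus control at week 15 had to lie within 0.2 of 0. CPM is the usual scaling of counts to a common library total. All genes that met both conditions were taken, since they were fewer than the 200 allowed. The fall in control buds was shared by 917 genes, of which 353 were at least 1 higher under ethylene at week 15, 346 were higher by 0.2 to 1 and 63 were lower by 0.2 or more. The 353 genes are called the ethylene-held genes below and serve for comparison.

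The tubers were of the cultivar Russet Burbank. Treated tubers were kept in 10 ppm ethylene and sampled at weeks 3, 6, 9, 12 and 15, and further tubers were sampled at weeks 16, 17 and 18, in air after 15 weeks of ethylene. Control tubers without ethylene were sampled at weeks 0, 3, 6, 9, 12, 15, 16, 17 and 18. Each group had 4 libraries from primary bud and 4 from flesh, which gave 34 groups, with 16.6 M to 50.9 M counts per library (median 31.01 M). Whether the libraries within a group are from different tubers is not stated in the labels, and p-values therefore measure the spread between samples that may differ only technically. In air at week 17, bud replicate 1 stood apart, with a mean Pearson correlation of 0.857 with the other libraries of its group, across genes, where the next lowest library of the series, also of this group, had 0.936. It entered no comparison tested here, but it entered the shared estimate of spread.

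The potato tuber is a swollen stem, and its buds, or eyes, are dormant at harvest and later grow out as sprouts at the expense of starch in the flesh. Ethylene is a gaseous plant hormone, perceived by receptors in the endoplasmic reticulum membrane that start a signalling cascade to transcription factors in the nucleus. Potato stores use it against the growth of sprouts. In tissue samples such as these, fewer cells of a type and less RNA per cell cannot be told apart.

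None of the gene IDs matched the gene name table at hand (0 of 32878), so genes are given by the IDs of the deposited table, without names or roles. Values of copied, overlapping or antisense genes are uncertain, because the sources used here do not give how reads they share were handled.

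The control fall, which chose the genes and is given as a description, ranged from 1.00 to 4.93 on the log2(CPM + 1) scale, with a median of 1.35. It reached 2 in 30 genes and 3 in 4 genes. The last gene inside the limit, Soltu.DM.01G035940, fell by 1.00, and the first outside it, Soltu.DM.12G028920, had a fall of 0.99. For the week 15 difference the last inside was Soltu.DM.03G015540 at 0.195 and the first outside was Soltu.DM.09G025070 at 0.204.

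The genes covered a wide range of levels. At week 0, 80 of the 155 averaged at least 10 CPM in bud and 23 at least 100 CPM, while 25 averaged under 2 CPM. By week 15, 65 genes were under 1 CPM in both bud groups, and 21 had no counts in any control bud library of weeks 15 to 18. For genes so low the 1 added to each mean holds the week 15 difference near 0 whatever their ratio. Soltu.DM.03G015480 had 0, 0.209, 0 and 0.274 CPM in ethylene buds of week 15, against 0 in all control libraries, and Soltu.DM.07G022700 had 0 in all ethylene libraries, against 0, 0, 0 and 0.463 CPM in control buds. The other 90 genes were at 1 CPM or more in a bud group of week 15.

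The largest fall was that of Soltu.DM.02G025760. At week 15 it had 0.741, 1.497, 1.86 and 2.41 CPM in ethylene buds, against 1.27, 2.76, 1.17 and 1.96 CPM in control buds. At week 0 control buds had 81.6, 96.4, 84.6 and 74.3 CPM. The libraries of the treatments overlapped at week 15, and all lay far below week 0. Soltu.DM.S001100 came next, with 1.91, 1.88, 2.62 and 2.99 CPM in ethylene buds of week 15, against 5.04, 1.74, 1.38 and 1.25 CPM in control buds. The 4 libraries of week 0 had between 120 and 149 CPM.

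The most abundant of the genes at week 0 was Soltu.DM.01G034410. It had 1406, 1609, 1659 and 2089 CPM in ethylene buds of week 15, against 1887, 1614, 1524 and 1574 CPM in control buds, and 8874, 8031, 7699 and 9268 CPM in control buds of week 0. Its level after the fall was still above the week 0 level of every other gene of the set. The second, Soltu.DM.04G030090, had 169, 203, 218 and 308 CPM in ethylene buds of week 15, against 354, 231, 194 and 220 CPM in control buds. At week 0 it had 764, 695, 695 and 730 CPM.

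Most of the fall in control buds came early. At week 3, 62.6% of the 155 genes were already at least 1 below week 0, and the median gene had completed 84.4% of its fall. The share of genes was 71.6% at week 6, 81.9% at week 9 and 87.1% at week 12, and the median gene had completed 100%, 109.5% and 100% of its fall at these weeks. Week 0 and the fall are values of the rule. The shares here and in the next paragraph are therefore descriptions, and they were not computed over all genes. Of the 353 ethylene-held genes, 237 were at least 1 below week 0 in control buds of week 3, so the early drop was found in those genes too.

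In ethylene buds the course was not the same. At week 3, 76.1% of the genes were at least 1 below week 0, with 93.8% of the fall completed in the median gene. The share of genes was 62.6% at week 6, 71% at week 9 and 47.7% at week 12, and the median gene had completed 86.6%, 100% and 72.3% of the fall. Thus the genes stood closer to their week 0 level at week 12 than at week 3 under ethylene, which was not so in control buds.

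**Figure D1:**
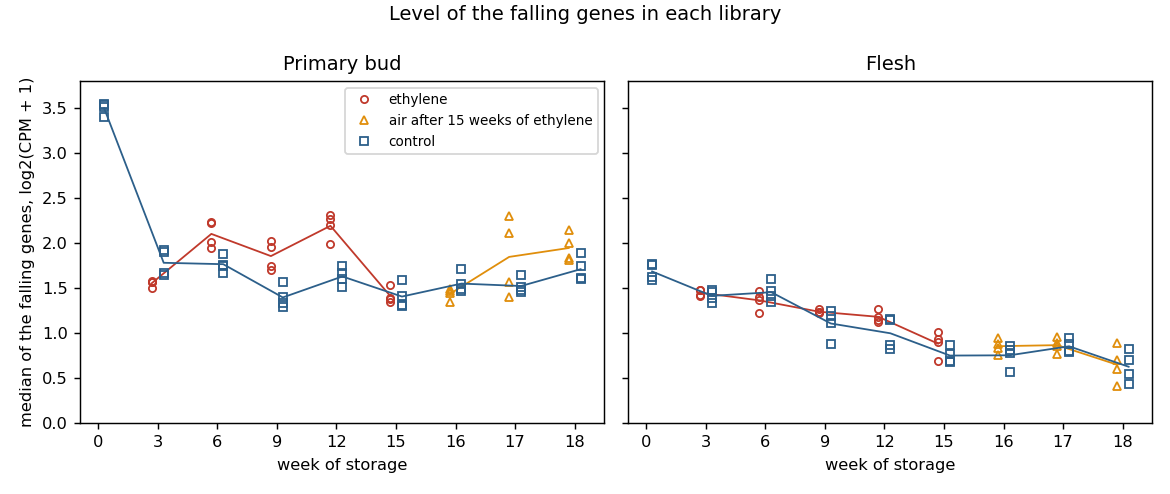
Median of the 155 genes in each library, log2(CPM + 1), by week of storage in primary bud (left) and flesh (right); symbols are libraries (4 per group), lines join group means. In bud the 4 ethylene libraries of week 12 lie between 1.99 and 2.32, above the control libraries at 1.51 to 1.74, while at week 15 the treatments overlap, which the choice of genes fixes.

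The plot of library medians shows this course. In bud the median over the genes was 3.40 to 3.55 in the libraries of week 0. At week 3 it was 1.499 to 1.58 in ethylene buds, against 1.64 to 1.92 in control buds. At week 12 it was 1.99, 2.20, 2.26 and 2.32 in ethylene buds, against 1.60, 1.51, 1.66 and 1.74 in control buds. The ethylene libraries were lower than all control libraries at week 3 and higher than all of them at week 12.

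The comparisons of ethylene with control buds, at weeks 3, 6, 9 and 12, used no library that chose the genes. They were tested with edgeR's quasi-likelihood test, with a threshold of 0.05 on p-values adjusted over all genes by the Benjamini-Hochberg method. All 155 genes passed the filter on low counts, many of them through their level at week 0. The median log2 fold change over all 24328 genes tested lay between -0.03 and 0 in these weeks.

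At week 3 ethylene lowered more of the genes than it raised: 19 of 155 were lower and 1 was higher. Over all genes tested, 2.54% were lower and 2.63% higher, or 5.16% called in all. The median log2 fold change of the 155 genes was -0.30. Of the ethylene-held genes 71 were lower and 6 higher, with a median of -0.58. Among the 90 genes at 1 CPM or more, 17 were lower and 1 higher.

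The largest drop at week 3, among called genes averaging 5 CPM or more in a compared group, was in Soltu.DM.12G006180. It had 0.209, 1.28, 2.91 and 4.44 CPM in ethylene buds, against 8.44, 7.66, 8.96 and 19.1 CPM in control buds. The groups did not overlap, and it fell by 2.43 on the log2 scale (SE 0.47, adjusted p = 0.000415, edgeR). Soltu.DM.08G027970 had 2.09, 2.38, 4.92 and 6.58 CPM in ethylene buds, against 9.61, 8.43, 16.7 and 32.2 CPM in control buds. It fell by 2.14 (SE 0.52, adjusted p = 0.00698, edgeR), a call that was lost without control replicate 4. The gene that was higher, Soltu.DM.12G007370, had 18.5, 18.6, 14.8 and 15.5 CPM in ethylene buds, against 12.1, 12.5, 13.3 and 13.2 CPM in control buds, a log2 change of 0.43 (SE 0.13, adjusted p = 0.0490, edgeR) whose call was lost in 10 of 14 other settings.

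Counts at week 3 varied with the libraries. Over all genes, 1256 were called with all libraries, against 535 and 811 without ethylene replicates 1 and 2, 597 without control replicate 4 and 2358 without the library apart at week 17. Among the 155 genes, the number lower was 14 to 18 when 1 library of the comparison was left out, and 25 without the library apart.

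At week 6 the direction had turned. Ethylene raised 32 of the 155 genes and lowered 5, where 8.2% of all genes tested were higher and 7.09% lower, or 15.3% called. The median log2 fold change was 0.28. Without ethylene replicate 4 the number higher was 19, and without the library apart at week 17 the number lower was 9. Of the ethylene-held genes 277 were higher, with a median of 1.38.

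Soltu.DM.10G017040 rose most at week 6 among called genes averaging 5 CPM or more in a compared group. It had 8.37, 12.5, 16.3 and 18.8 CPM in ethylene buds, against 1.44, 1.27, 2.77 and 4.86 CPM in control buds. All ethylene libraries lay above all control libraries, and the log2 change was 2.55 (SE 0.28, adjusted p = 1.55e-09, edgeR). Soltu.DM.08G027970, which had fallen at week 3, had 41.9, 49.3, 49.9 and 56.2 CPM in ethylene buds, against 4.11, 4.99, 15.1 and 23.8 CPM in control buds. It rose by 2.16 (SE 0.40, adjusted p = 6.64e-05, edgeR), and its ethylene libraries were above the 24.2 to 35.1 CPM of week 0.

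Lower at week 6 was Soltu.DM.08G025260, with 32.1, 29.1, 28.3 and 30.6 CPM in ethylene buds, against 65.8, 55.7, 60.04 and 45.8 CPM in control buds. The groups did not overlap, and it fell by 0.80 (SE 0.24, adjusted p = 0.0120, edgeR). Soltu.DM.12G012100 had 2.38, 4.17, 2.82 and 5.47 CPM in ethylene buds, against 5.87, 6.53, 5.44 and 7.13 CPM in control buds, with a small overlap. Its fall of 0.63 (SE 0.18, adjusted p = 0.00923, edgeR) was not called without ethylene replicate 1, with DESeq2 or in a fit of these groups alone.

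At week 9 ethylene raised 31 of the genes and lowered 3, beside 4.86% higher and 4.66% lower over all genes, or 9.52% called. The median log2 fold change was 0.36. The number higher was 18 without ethylene replicate 4 and 19 without control replicate 1 or 2, and the number lower was 5 without ethylene replicate 3 or without the library apart at week 17. Over all genes the 2317 calls became 1459 without ethylene replicate 4, 1444 without control replicate 1 and 3511 without the library apart. Of the 90 genes at 1 CPM or more, 20 were higher and 2 lower.

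Soltu.DM.03G015540 rose most at week 9 among called genes averaging 5 CPM or more in a compared group. It had 7.88, 5.78, 4.39 and 8.97 CPM in ethylene buds, against 0.612, 1.15, 0.631 and 0.759 CPM in control buds. This was a log2 change of 3.12 (SE 0.37, adjusted p = 1.71e-08, edgeR), or 8.69-fold. Soltu.DM.12G006180, lower at week 3, had 32.2, 31.8, 25.2 and 31.2 CPM in ethylene buds, against 3.37, 4.96, 6.87 and 7.17 CPM in control buds, and rose by 2.46 (SE 0.37, adjusted p = 4.53e-06, edgeR). Neither gene had overlapping groups. Larger fitted changes were called in genes under 5 CPM, such as Soltu.DM.03G025100, with a mean of 0.458 CPM in ethylene buds, against 0 in control buds (adjusted p = 0.0319, edgeR).

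Among called genes averaging 5 CPM or more in a compared group, the largest decrease at week 9 was in Soltu.DM.04G034090. This gene had 11.2, 16.9, 13.6 and 18.04 CPM in ethylene buds, against 21.3, 26.7, 29.9 and 22.04 CPM in control buds. It fell by 0.76 (SE 0.16, adjusted p = 0.000827, edgeR). Soltu.DM.03G021660 had 42.1, 48.5, 45.1 and 54.04 CPM in ethylene buds, against 58.8, 65.7, 55 and 63.8 CPM in control buds, and fell by 0.38 (SE 0.10, adjusted p = 0.00669, edgeR). That call was lost without ethylene replicate 1. Soltu.DM.07G000910, under 5 CPM, was also called lower (adjusted p = 0.00120, edgeR), with no counts in ethylene buds, against a mean of 1.80 CPM in control buds.

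Among the 155 genes week 12 had the most calls of these weeks, while over all genes week 6 had the most, 3718. Ethylene raised 56 of the 155 genes and lowered 2, beside 5.47% higher and 6.17% lower over all genes tested, or 11.6% called. The median log2 fold change was 0.77, and 41 of the genes that rose did so at least 2-fold. Of the 90 genes at 1 CPM or more, 41 rose and 2 fell, with a median of 0.55. Of the ethylene-held genes 229 rose, with a median of 1.07. Without ethylene replicate 4 the number of the 155 that rose was 36 and none was lower (0 of 155), while 1858 genes were called over the whole table against 2832. The number lower was also 0 without control replicate 3, and 1 without ethylene replicate 1 or control replicate 2.

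Soltu.DM.02G025760, the gene with the largest control fall, rose most at week 12 among called genes averaging 5 CPM or more in a compared group. It had 13.4, 19.9, 39.6 and 64.8 CPM in ethylene buds, against 3.96, 4.42, 4.89 and 4.15 CPM in control buds. The ethylene libraries were spread over a wide range but all lay above the control libraries, and the log2 change was 2.97 (SE 0.34, adjusted p = 4.40e-09, edgeR). Larger fitted changes were called in genes under 5 CPM without counts in control buds, such as Soltu.DM.08G026490 (9.15, adjusted p = 0.00101, edgeR). Soltu.DM.03G015540 had 16.9, 13.6, 14.3 and 19.7 CPM in ethylene buds, against 3.28, 3.20, 3.76 and 3.87 CPM in control buds, and rose by 2.18 (SE 0.23, adjusted p = 1.21e-09, edgeR). At week 0 this gene had 22.4 to 28.6 CPM, and at week 15 it had 2.53, 5.05, 1.86 and 6.55 CPM in ethylene buds, against 3.74, 3.28, 2.47 and 3.97 CPM in control buds.

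The genes called lower at week 12 changed little. Soltu.DM.02G023510 had 28.7, 38.3, 40.2 and 28.3 CPM in ethylene buds, against 46.5, 54.2, 48.8 and 52.4 CPM in control buds, and fell by 0.60 (SE 0.18, adjusted p = 0.0211, edgeR). Soltu.DM.03G021660, also lower at week 9, had 40.4, 41.7, 41.4 and 40.1 CPM in ethylene buds, against 44.5, 58.9, 52.1 and 50.4 CPM in control buds, and fell by 0.36 (SE 0.10, adjusted p = 0.0110, edgeR). The first call was lost without ethylene replicate 1 or 4 or control replicate 2, 3 or 4, and the second without ethylene replicate 4 or control replicate 2 or 3.

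**Figure D2:**
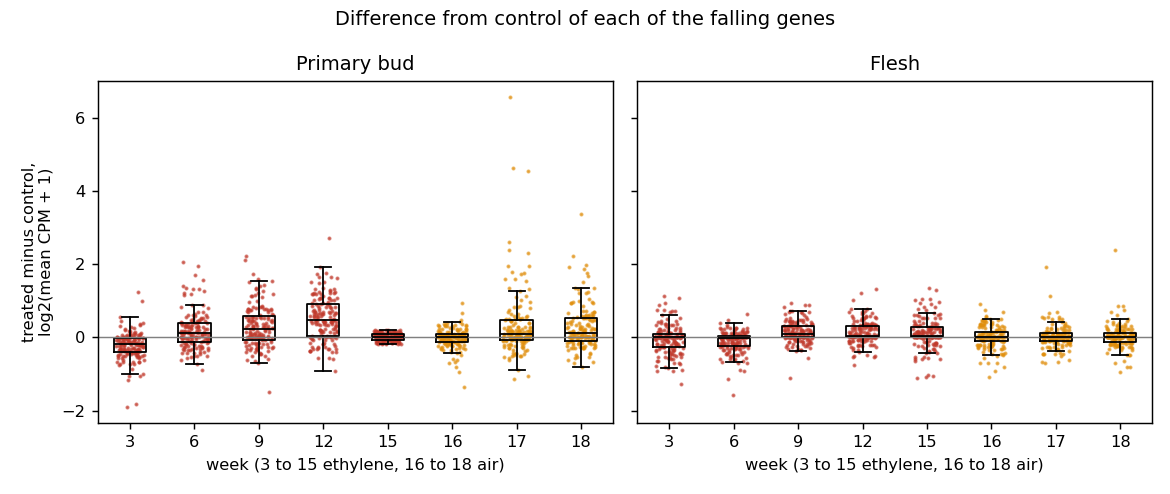
Treated minus control of each of the 155 genes, log2(mean CPM + 1), in bud (left) and flesh (right); treated is ethylene at weeks 3 to 15 and air after ethylene at weeks 16 to 18, points are genes, boxes show quartiles and median, and whiskers reach 1.5 times the box. Bud medians are -0.19 at week 3 and 0.46 at week 12, and the narrow box at week 15 is the rule that chose the genes.

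Each week had its own ethylene and control libraries, so calls can be joined across weeks. Of the 155 genes, 75 (48.4%) were higher under ethylene at 1 or more of weeks 6, 9 and 12, beside 12.8% of all genes tested. Higher in all of those weeks were 12 of them (7.74%), beside 1.35% of all genes. Lower at 1 or more of these weeks were 9 genes (5.81%), beside 15% of all genes. Counting week 3 as well, 89 genes (57.4%) were called in at least 1 week and 66 in none, where 29% of all genes were called in at least 1. Lower at week 3 and higher in a later week were 8 genes (5.16%), beside 0.954% of all genes, and 5 of these were higher at week 12 (3.23%, beside 0.243%). Of the ethylene-held genes, 94.3% were higher at 1 or more of weeks 6, 9 and 12, and 35.1% at all of them. Lower at week 3 and higher in a later week were 19.8% of the ethylene-held genes, and 7.37% were lower at week 3 and higher at week 12. The turn was thus more frequent in those genes than in the 155.

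Between week 12 and week 15 the treatments came together through the ethylene buds. On the log2(mean CPM + 1) scale, 83.2% of the 155 genes were lower in ethylene buds of week 15 than in those of week 12, 39 genes by at least 1, with a median difference of -0.53. In control buds the median difference over the same weeks was -0.06. For the ethylene-held genes the medians were -0.25 in ethylene buds and -0.89 in control buds. Of those 353 genes, 234 were lower in ethylene buds of week 15 than in those of week 12, 48 by at least 1. Week 15 was part of the rule, which fixed that the treatments met there. These steps are therefore descriptions with no test, and no share over all genes was computed.

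The change between weeks 3 and 12, which the rule did not use, was tested within each treatment and between them. In ethylene buds 59 of the 155 genes were higher at week 12 than at week 3 and 22 lower, with a median log2 change of 0.64. Over all genes 16.8% were higher and 12.2% lower, with a median of 0. Control buds had 7 of the genes higher at week 12 and 49 lower, with a median of -0.41, beside 17.7% higher and 12.2% lower over all genes (29.8% called) and a median of 0.04. Without control replicate 4 of week 3 the number higher in control buds was 11.

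Soltu.DM.10G017040 rose most in ethylene buds among called genes averaging 5 CPM or more in a compared group. It had 5.68, 6.28, 7.99 and 6.01 CPM at week 12, against 0.339, 0.550, 0.640 and 0.441 CPM at week 3. The log2 change was 3.65 (SE 0.47, adjusted p = 1.08e-08, edgeR). Soltu.DM.03G015540 rose by 3.33 (SE 0.26, adjusted p = 7.21e-15, edgeR), with 0.982 to 2.27 CPM in ethylene buds of week 3. In ethylene buds Soltu.DM.06G032540 had no counts at week 12, against 9.06, 6.01, 8.76 and 6.92 CPM at week 3, and was at least 319-fold lower (adjusted p = 1.82e-08, edgeR). This bound takes 3 counts in all as the upper limit for the empty group, for counting error only.

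In control buds Soltu.DM.06G032540 had 2.14, 0, 1.48 and 0 CPM at week 12, against 7.86, 7.47, 5.61 and 6.67 CPM at week 3, and fell by 2.87 (SE 0.55, adjusted p = 3.72e-05, edgeR). This low level did not last in control buds, where the libraries of week 18 together held 1096 counts. Its smallest fall below week 0 in weeks 15 to 18 was 1.11 on the log2(CPM + 1) scale. The counts of this gene were uneven, so its values are uncertain. Soltu.DM.S001100 fell in both treatments. It had 2.00, 2.35, 3.71 and 2.09 CPM at week 12 in ethylene buds, against 23.99, 18.9, 19.7 and 18.1 CPM at week 3, a fall of 3.03 (SE 0.31, adjusted p = 1.60e-11, edgeR). In control buds it had 2.85, 4.45, 3.21 and 3.16 CPM at week 12, against 10.5, 21.4, 8.94 and 19.99 CPM at week 3, a fall of 2.18 (SE 0.30, adjusted p = 3.33e-08, edgeR).

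A few genes recovered in part in control buds. Soltu.DM.04G033970 had 7.52, 8.21, 7.32 and 7.24 CPM at week 12, against 2.48, 2.27, 1.97 and 3.64 CPM at week 3, a rise of 1.54 (SE 0.33, adjusted p = 0.000225, edgeR), where week 0 had been at 32.8 to 36.1 CPM. Soltu.DM.02G023120 had 3.82, 7.73, 4.95 and 6.11 CPM at week 12, against 2.58, 2.07, 3.28 and 4.18 CPM at week 3. Its rise of 0.88 (SE 0.26, adjusted p = 0.00797, edgeR) was not called without replicate 2 of either week.

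The difference between the treatments in this change was tested directly as an interaction, which shares its libraries with the comparisons above. It was more positive under ethylene in 44 of the 155 genes and more negative in 1, beside 3.43% and 2.53% of all genes, or 5.96% called. The median was 1.19 for the 155 genes and -0.03 for all genes tested. The ethylene-held genes had 233 more positive, with a median of 1.83. Without control replicate 4 of week 3 the calls over all genes were 883 instead of 1449, and without the library apart at week 17 they were 2369. For the 155 genes the number more positive was then 58 without the library apart and 38 to 48 without 1 library of the comparison.

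The largest of these interactions, among called genes averaging 5 CPM or more in a compared group, were in 2 genes. They were Soltu.DM.02G025760, at 2.81 (SE 0.51, adjusted p = 0.000188, edgeR), and Soltu.DM.10G017040, at 2.80 (SE 0.72, adjusted p = 0.00959, edgeR). The second was not called without control replicate 4 of week 3. The gene with the more negative change was Soltu.DM.12G007370, at -0.73 (SE 0.20, adjusted p = 0.0164, edgeR). It had 9.14, 12.2, 8.28 and 11.1 CPM in ethylene buds of week 12, against 11.9, 10.3, 10.7 and 17.0 CPM in control buds. Its call was lost without ethylene replicate 1 or 2 of week 3, ethylene replicate 3 of week 12 or control replicate 4 of week 12.

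**Figure D3:**
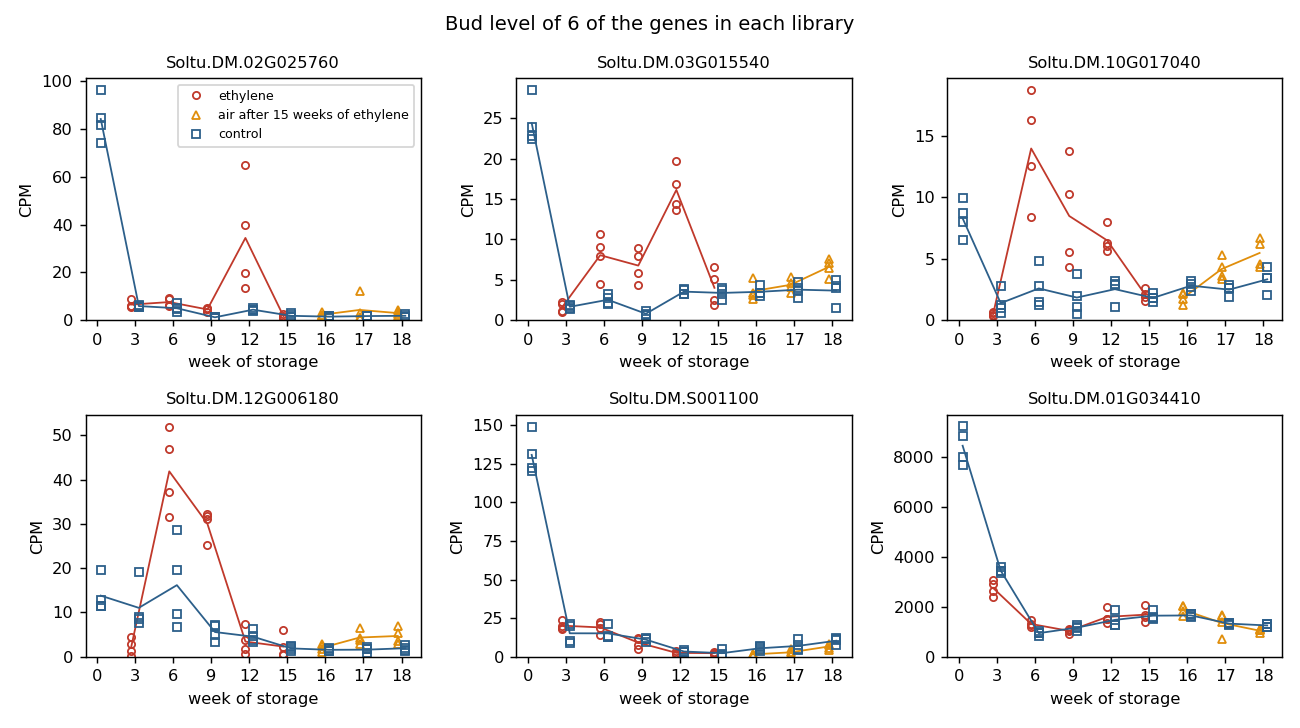
CPM of 6 of the genes in each bud library by week of storage; symbols are libraries (4 per group), lines join group means, and each panel has its own linear axis. Soltu.DM.02G025760 reaches 13.4 to 64.8 CPM in ethylene buds of week 12, Soltu.DM.12G006180 reaches 31.5 to 51.96 CPM in those of week 6, and Soltu.DM.S001100 and Soltu.DM.01G034410 fall in both treatments.

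The panels of single genes show that the weeks of high level under ethylene differed between genes. Soltu.DM.12G006180 had 51.96, 46.9, 37.1 and 31.5 CPM in ethylene buds of week 6, against 6.81, 9.66, 19.5 and 28.7 CPM in control buds. By week 12 its libraries overlapped, with 7.46, 3.68, 1.86 and 0.737 CPM in ethylene buds, against 4.79, 6.29, 3.73 and 3.34 CPM in control buds. Soltu.DM.02G025760 was high in ethylene buds of week 12 after 3.43 to 5.19 CPM at week 9. For Soltu.DM.01G034410 at week 12 the groups overlapped, with 1536, 1360, 1519 and 1989 CPM in ethylene buds, against 1862, 1289, 1283 and 1492 CPM in control buds.

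After ethylene, in air, the genes stayed near the control level for a week. The control groups of these weeks belong to the rule, so the differences are descriptions. At week 16 the median difference, air minus control, was 0, with 65 genes higher and 69 lower. At week 17 it was 0.09, with 94 genes higher and 20 of these by at least 1, and without replicate 1, the library apart, it was 0.06 with 93 and 14 genes. At week 18 it was 0.12, with 95 genes higher and 15 by at least 1. Of all 27504 genes with counts, 10988 were higher and 13758 lower at week 16, with all libraries. At week 17, 9159 of all genes were higher, 749 of them by at least 1, and 16030 lower. At week 18, 12877 were higher, 480 of them by at least 1, and 12407 lower. In air at week 18, 99 genes of the set were higher than under ethylene at week 15, 21 of them by at least 1, while 322 of the 353 ethylene-held genes were lower. Ethylene buds of week 15 chose both sets, the ethylene-held genes by their high level there, so a later drop in those was favoured in advance. This step is a description, and its share over all genes was not computed.

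A few genes reached high levels in air in some libraries only. Soltu.DM.01G005180 had 306, 9.02, 1.92 and 61.7 CPM in air at week 17, against 0 in all 4 control libraries, and 18.6, 2.08, 8.51 and 7.94 CPM in air at week 18, against 0 in all 4 control libraries. At week 0 it had had 1.62 to 3.18 CPM. Soltu.DM.01G005170, the next ID, and Soltu.DM.S002200, on a scaffold, had the same pattern, with 70.7, 2.31, 0.620 and 14.8 CPM and 66.6, 3.33, 0.372 and 24.6 CPM in air at week 17. These last genes were named after their values were seen, and the 3 genes may share reads. The first value of each at week 17, the highest of its group, is that of replicate 1, the library apart.

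Air at week 18 was also set against ethylene at week 3, neither of which chose the genes. Of the 155 genes, 37 were higher and 41 lower, beside 25.7% and 15.6% of all genes (41.3% called), with medians of -0.07 and 0.10. Soltu.DM.01G005180 was 4.33 higher on the log2 scale (SE 1.17, adjusted p = 0.00194, edgeR), where ethylene buds of week 3 had 0.627, 0.314, 0.611 and 0 CPM. Soltu.DM.10G017040 had 4.60, 6.72, 6.25 and 4.34 CPM in air, against the week 3 values above, and was 3.28 higher (SE 0.50, adjusted p = 1.64e-07, edgeR).

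Lower in air at week 18 than under ethylene at week 3 was Soltu.DM.03G033840, with 1.95, 2.53, 2.81 and 1.30 CPM, against 8.38, 8.54, 9.29 and 7.87 CPM. It fell by 2.14 (SE 0.21, adjusted p = 7.17e-13, edgeR). Soltu.DM.S001100 had 4.60, 7.74, 5.98 and 8.34 CPM in air and fell by 1.78 (SE 0.26, adjusted p = 1.02e-07, edgeR). This comparison and that of weeks 12 and 3 share the ethylene libraries of week 3.

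**Figure D4:**
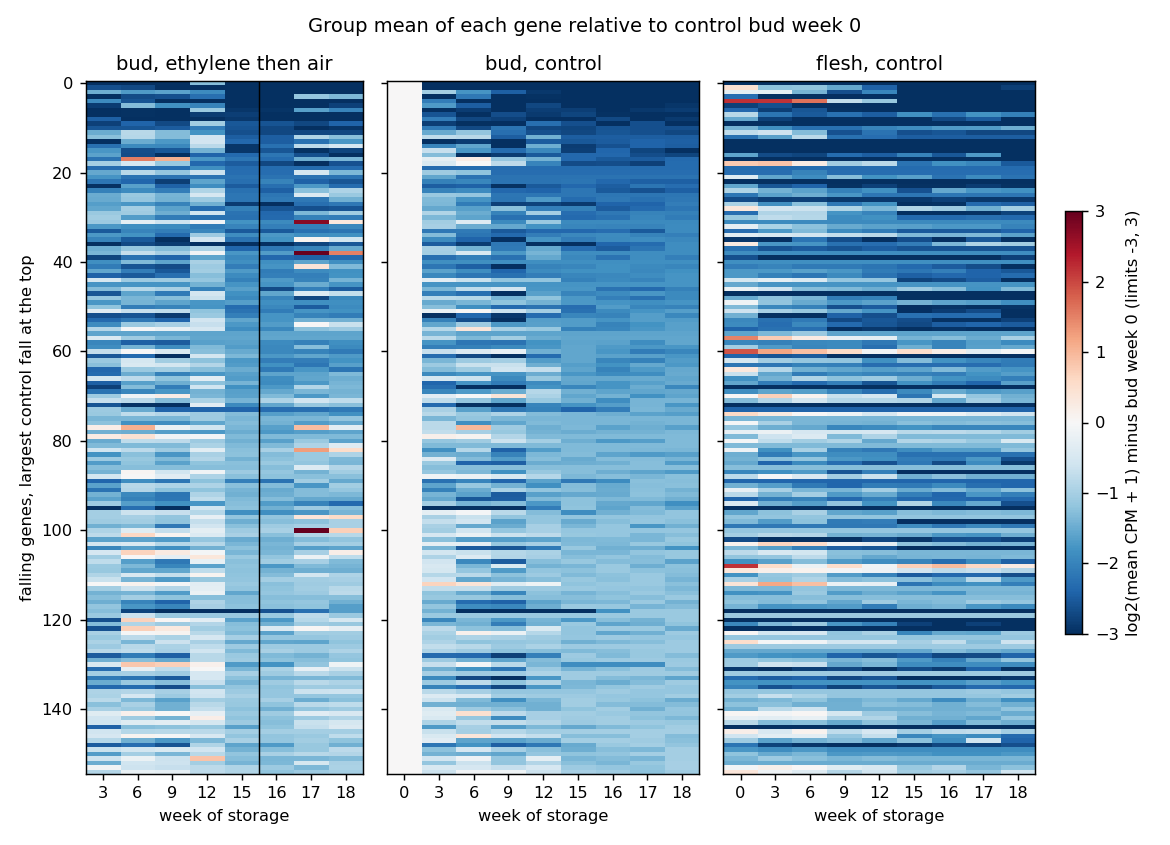
Group mean of each gene minus its control bud mean of week 0, log2(mean CPM + 1), for bud under ethylene and then air (left, line at the start of air), control bud (middle) and control flesh (right); each row is 1 of the 155 genes, ordered by control fall, and colours stop at -3 and 3. The ethylene column of week 12 is paler than its neighbours, the control bud columns of weeks 15 to 18 are blue by the choice of genes, and many flesh rows are blue from week 0 on.

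The map of group means shows that the level in flesh was mostly below that in bud at the start. At week 0, 19 genes had their higher mean in flesh, 49 genes were under 1 CPM in every flesh group, 13 of them without a count in any flesh library. Bud week 0 was part of the rule, so tissues were tested at week 3, between the control groups. There 49 of the 155 genes were higher in bud and 29 lower, beside 26.9% and 21.5% of all 24835 genes tested (48.4% called), and the median log2 difference was 0.30, beside 0.04 over all genes. The ethylene-held genes had 197 higher and 50 lower. Neither share of the 155 genes was far from that of all genes, and the number lower was 18 with DESeq2.

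Soltu.DM.06G032540 had 7.86, 7.47, 5.61 and 6.67 CPM in control bud of week 3, while flesh had none, which makes bud at least 268-fold higher (adjusted p = 3.42e-08, edgeR). Soltu.DM.02G019030 had 23.3, 22.3, 22.5 and 28.9 CPM in bud, against 0, 0.408, 0 and 0 CPM in flesh, where 1 library held all counts, and was 7.83 higher on the log2 scale (SE 0.93, adjusted p = 1.09e-12, edgeR). Lower in bud was Soltu.DM.09G009470, with 2.93, 2.27, 2.14 and 3.40 CPM, against 12.8, 10.98, 15.7 and 11.1 CPM in flesh, a difference of -2.39 (SE 0.26, adjusted p = 4.81e-14, edgeR). Soltu.DM.03G023590 had 0, 4.73, 0 and 5.07 CPM in bud, against 34.8, 28.9, 45.9 and 150 CPM in flesh, a difference of -4.75 (SE 0.82, adjusted p = 1.07e-06, edgeR) that was not called with DESeq2. Its bud counts were uneven within groups, so its values are uncertain.

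Control flesh did not enter the rule, and the fall was found there too. Of the 155 genes, 28 did not pass the filter on low counts in flesh and were not tested. At week 18, 77 of the tested genes (60.6%) were lower than at week 0 and 0 were higher, beside 18.7% lower and 17.0% higher over all 21718 genes, or 35.7% called. The median log2 change was -1.41, beside -0.0031 over all genes. For the count of 0, 1 gene was higher at an unadjusted p under 0.05 (edgeR), 1 was called higher by DESeq2, and 1 was called without replicate 4 of week 18 or replicate 2 of week 0. On the scale of the rule, 37 of the 155 genes had a fall of at least 1 at each of weeks 15 to 18 in flesh, and the others did not. This count was not made over all genes, so it has no share to stand beside. The ethylene-held genes had 227 of 333 tested lower and 5 higher, so a fall in flesh was found in those genes too.

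In control flesh Soltu.DM.08G006350 had no counts at week 18, against 5.97, 8.11, 9.26 and 11.7 CPM at week 0, at least 327-fold lower (adjusted p = 2.81e-14, edgeR). Soltu.DM.03G023590 had no counts at week 18, against 60.3, 64.3, 62.8 and 76.1 CPM at week 0, at least 2460-fold lower (adjusted p = 6.19e-06, edgeR). Soltu.DM.S001100 had 120 to 149 CPM in bud of week 0, against 157, 176, 189 and 207 CPM in flesh.

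In flesh at week 15 ethylene changed 30 of the genes tested (23.6%). Of these, 21 were higher (16.5% of those tested) and 9 lower (7.09%), where 16.2% of all genes were higher and 14.1% lower, or 30.3% called. The share higher was close to that of all genes. The median log2 fold change was 0.28, beside 0.02 over all genes, and 200 of the ethylene-held genes were higher. With the mean effect over weeks 3 to 15, which includes week 15, 18 were higher and 8 lower, beside 6.96% and 5.86% of all genes (12.8% called), and the medians were 0.17 and 0.0044.

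Soltu.DM.01G008040 rose in flesh at week 15, with 8.62, 11.1, 14.6 and 13.5 CPM under ethylene, against 4.05, 5.03, 3.29 and 4.07 CPM in controls, a log2 change of 1.64 (SE 0.24, adjusted p = 2.01e-07, edgeR). Soltu.DM.12G004930 had 6.72, 8.02, 8.50 and 10.7 CPM under ethylene, against 5.69, 3.74, 2.87 and 2.49 CPM in controls, and rose by 1.28 (SE 0.23, adjusted p = 1.41e-05, edgeR). Soltu.DM.07G000910 had 1.57, 1.99, 1.64 and 3.02 CPM under ethylene, against 4.38, 4.80, 6.47 and 5.91 CPM in controls, and fell by 1.23 (SE 0.28, adjusted p = 0.000503, edgeR). None of these groups overlapped. Soltu.DM.02G021370 had 3.90, 3.33, 5.54 and 4.13 CPM under ethylene, against 13.7, 7.67, 10.7 and 8.29 CPM in controls, and fell by 1.21 (SE 0.21, adjusted p = 4.92e-06, edgeR). In the mean over weeks 3 to 15, 3 of the genes were called at least 2-fold higher. Of those averaging 5 CPM or more in a compared group, Soltu.DM.01G029520 and Soltu.DM.06G016070 rose most. They rose by 0.90 (SE 0.20, adjusted p = 0.000746, edgeR) and 0.66 (SE 0.15, adjusted p = 0.000827, edgeR), which is less than 2-fold. Soltu.DM.07G000910 and Soltu.DM.04G034090 fell by 0.84 (SE 0.15, adjusted p = 2.04e-05, edgeR) and 0.57 (SE 0.08, adjusted p = 5.61e-07, edgeR).

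**Figure D5:**
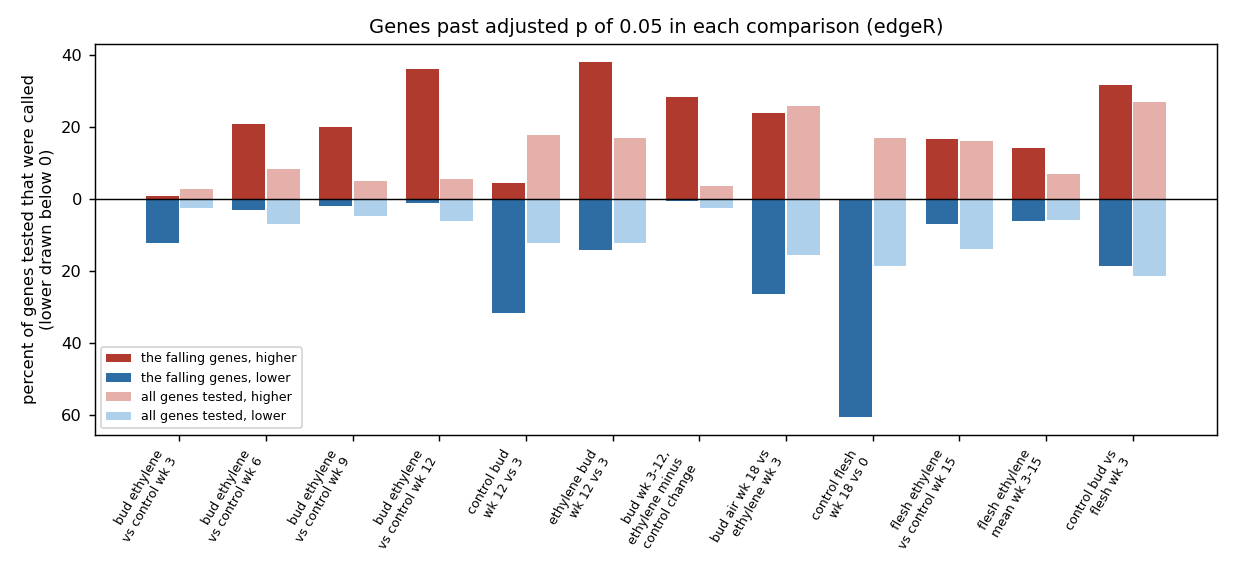
Percent of genes past an adjusted p of 0.05 (edgeR) in each of the 12 comparisons, higher drawn above 0 and lower below 0, for the genes of the set (dark) and for all genes tested (light). In bud at week 12, 56 of 155 genes are higher under ethylene beside 5.47% of all genes, and in control flesh 60.6% of those tested are lower at week 18 beside 18.7%.

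The bars of called genes set the comparisons side by side. The set's share lies furthest from that of all genes in control flesh (lower at week 18), in bud at week 12 (higher under ethylene) and in the interaction (more positive under ethylene between weeks 3 and 12). Comparisons that share libraries are not independent of each other.

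By the chromosome in the ID, the genes lay on all 12 chromosomes and on scaffolds. Chromosome 3 held 24 of them (15.5%, beside 9.72% of all genes listed), chromosome 8 held 18 (11.6%, beside 7.497%), and chromosome 5 held 2 (1.29%, beside 6.56%). Another of the genes stood within 5 ID steps of 27 (17.4%), and the same held for 97 of the 353 ethylene-held genes (27.5%). These shares cannot be compared directly, since a larger set has more neighbours by its size alone. The share for random sets of these sizes was not computed.

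A stretch of chromosome 8 from Soltu.DM.08G026440 to Soltu.DM.08G026810, chosen after its values were seen, lists 38 IDs, of which 8 had the control fall and 7 are among the 155 genes. Of these 7, 5 were higher under ethylene at week 12, where 36.1% of the 155 genes and 5.47% of all genes were. Soltu.DM.08G026790 had 60.8, 57.9, 72.1 and 109.3 CPM in ethylene buds of week 12, against 40.2, 28.7, 34.3 and 37.3 CPM in control buds, and rose by 1.07 (adjusted p = 4.95e-06, edgeR). Soltu.DM.08G026490 had 3.71, 1.61, 1.74 and 1.59 CPM in ethylene buds of week 12, against 0 in all control libraries, and none in either treatment at week 15. Neighbouring genes may be copies that share reads, so these 7 may not be 7 separate measurements.

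By the deposited transcript counts 30 of the 155 genes had 2 or more transcripts and the others 1, and for every gene the transcripts summed to the gene count. Of the 30, 27 had counts in control buds of week 18, and in 24 of these the most abundant transcript was the same at week 18 as at week 0. The main transcript differed in 3 genes. In Soltu.DM.09G005320 transcript 2 held 52.4% of the counts at week 18, and transcript 1 held 55.5% at week 0. Soltu.DM.09G025540 had all 291 counts of week 18 in transcript 2, where transcript 1 held 55.2% at week 0, and Soltu.DM.04G036540 had 39.4% in transcript 4 at week 18 and 45.6% in transcript 1 at week 0. These shares come from the 4 control libraries of each week together and have no test.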

How the data were processed

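RNA-seq libraries were made from total RNA of primary bud and flesh. Tools given by the submitters' processing notes are HISAT2, StringTie, SAMtools and Trimmomatic, with neither version nor role. For the genome build, annotation and strand setting, nothing is given in the sources used here. Raw counts per gene and per transcript were deposited by the authors, as whole numbers. A row without gene ID, with 1.76% to 2.95% of a library's counts, and 1 blank transcript row were left out. The D numbers of the titles were read as weeks, after the study's description.

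CPM were computed from the total of rows with a gene ID. Comparisons used edgeR 4.0.16 in R 4.3.3 (TMM, minimum count 10 and minimum total 15 in its filter, quasi-likelihood test, Benjamini-Hochberg threshold 0.05), with the 68 libraries of a tissue fitted together, or both tissues together between tissues, at 51 residual degrees of freedom per tissue. Fold changes come from this fit, not from the CPM printed. The steps were tested on simulated data. Alternatives were DESeq2 1.42.0, its size factors, no filter, the compared groups alone, the replicate number as a block, each library of a comparison left out (weeks 3 and 15 only for the mean over weeks), the library that stood apart left out, and other ways of choosing the genes, one of which (genes at 1 CPM or more at week 15) was added after the data were seen.

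The 155 genes, the comparison genes and the tests were chosen with earlier results of these data known. Named genes are at most 2 higher and 2 lower per comparison, with the largest change among called genes averaging 5 CPM or more in a compared group, plus the pairs with the largest control fall, the highest CPM at week 0 and the largest week 15 ratio (pseudocount 0.01). Others are marked in the text.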

Additional observations from a re-analysis of the deposited data

Results flagged for a closer look

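The change between weeks 3 and 12 differed between ethylene and control buds in 44 genes in the positive direction and in 1 gene in the negative direction by the interaction test (edgeR). Among them Soltu.DM.02G025760 had an interaction of 2.81, Soltu.DM.10G017040 of 2.80 and Soltu.DM.12G007370 of -0.73 on the log2 scale.

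Within groups of 4 libraries, a library far from the others was looked for in 110 groups of values, where chance gives about 5%, and 6 were found. The median level of the 155 genes was 1.499 in ethylene bud replicate 2 of week 3, below the other libraries of its group. Soltu.DM.12G006180 stood high in control bud replicate 4 of week 3, at 19.1 CPM, and low in ethylene bud replicate 3 of week 9, at 25.2 CPM. Soltu.DM.02G019030 stood high in control bud replicate 4 of week 3, at 28.9 CPM, and in control flesh replicate 2 of week 3, at 0.408 CPM, where the other libraries had no counts. Soltu.DM.03G023590 stood high in control flesh replicate 4 of week 3, at 150 CPM.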

How the results depend on the processing

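No gene named by the rule for a tested comparison changed direction under any alternative run in which its fold change was recomputed. At week 3 the number of the 155 genes higher, 1, was 0 with DESeq2 size factors, without the filter, with the DESeq2 test and with genes chosen on TMM-scaled CPM, 2 with the replicate block or without the library apart (bud in air, week 17, replicate 1), and 4 with only the groups compared. With only the groups compared, 34 were lower at week 3, 6 lower at week 9, 11 higher in control buds between weeks 3 and 12 and 2 more negative in the interaction, and calls over all genes were 3803 at week 3, 2531 in the interaction and 4312 in flesh at week 15. Without the library apart, 9 were lower at week 6 and 5 at week 9, and calls over all genes were 2358 at week 3, 3511 at week 9 and 2369 in the interaction. With the DESeq2 test, 2 were lower at week 6, 6 at week 9 and 5 at week 12, 2 were more negative in the interaction, 1 was higher in control flesh, and 18 were lower in bud than flesh. With genes chosen on TMM-scaled CPM (187 genes), 10 were lower at week 6, 9 at week 9 and 5 at week 12, and 0 more negative in the interaction. Of the genes at 1 CPM or more at week 15, 20 were higher at week 9 and 32 lower in control buds between weeks 3 and 12; fewer genes were counted there. A pseudocount of 0.1 let 316 genes pass the rule, among them 72.9% of the 155. The mean of logs gave 160 genes with 94.2% of the 155, and the 187 genes on TMM-scaled CPM held 76.1% of them, so the set itself depends on the scale of the rule. The cause of the other shifts was not tested.

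Leaving out 1 library at a time, the library apart included, gave 0 to 2 higher at week 3 (535 to 2358 over all genes), 19 to 35 higher at week 6, 18 to 39 higher and 2 to 5 lower at week 9 (1444 to 3511 over all genes), 36 to 65 higher and 0 to 3 lower at week 12 (1858 to 3892 over all genes), 5 to 11 higher in control buds between weeks 3 and 12, 0 to 2 more negative in the interaction (883 to 2369 over all genes), and 0 to 1 higher in control flesh. The other counts stayed within 1.5 times of the value with all libraries, save those given above without the library apart.

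The labels do not tie a replicate number to a shared batch, and in no comparison did every same-numbered pair deviate together (correlation over 0.1). The fits reported have no block. As a hint from the data, libraries deviated most like their own number in 6 of 8 at week 6 and 7 of 8 at week 9, and in 0 to 7 of 8 per comparison. The median level of the ethylene-held genes was highest in replicate 4 in 12 of 17 bud groups and lowest in replicate 1 in 11, and that of the 155 genes was highest in replicate 4 in 9. With the replicate block, 57 genes were higher and 3 lower at week 12, and 2 higher and 18 lower at week 3. Genes under 1 CPM rest on at most 50.9 counts in the deepest library and 16.6 in the shallowest, which limits their ratios.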
